A study of Mus musculus with 3 samples.

Results

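Oligodendrocyte precursor cells (OPC) are the proliferating glia of the adult brain from which myelinating oligodendrocytes are made. They were studied here in hippocampal cells of wild-type C57BL/6 mice labelled 2-year-old, in 3 single-cell libraries that form 1 group with no treated or mutant arm. The cells were selected on the UMI counts of marker genes in the cells themselves: a barcode was taken as an OPC when it held at least 1000 unique molecular identifiers (UMIs), at most 20% mitochondrial UMIs, at least 3 of the 9 genes Pdgfra, Cspg4, C1ql1, Lhfpl3, Cacng4, Matn4, Gpr17, Neu4 and Tnr, and at most 1 of the 6 genes Cldn5, Flt1, Cx3cr1, C1qa, Vtn and Dcn, which mark vessels, microglia, mural cells and fibroblasts. This gave 296 OPC among 11015 barcodes past the UMI and mitochondrial limits, of 14759 deposited. The nearest comparison was with astrocytes, which held at least 3 of Aqp4, Slc1a2, Gja1 and Ntsr2 under the same limit on the 6 genes and numbered 1677. The other classes were 4644 endothelial cells, 2118 microglia, 195 pericytes and 329 ependymal cells, each with at least 3 of its own markers. Hippocampi had been digested with papain and depleted of myelin with beads, which also acts on myelin-bearing cells. Outside the OPC, 8 barcodes met the mature oligodendrocyte rule and no other class rule, and 11 of the OPC met it as well. Nothing in the labels ties a library to an animal. The fit treated each library as a block, which takes out a shift shared by all its classes. The p-values below therefore rest on the scatter left after that, as differences between classes changed from one library to the next. This scatter was estimated from every class fitted, not from OPC alone, and it may be technical. One library, replicate 3, has 25 months in its title but the common age in its age field, and no ages were compared.

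OPC are best known for PDGF receptor alpha, the receptor of the growth factor PDGF-A that drives their division, and for the chondroitin sulfate proteoglycan NG2 (Cspg4). They receive synapses from neurons, carry glutamate and GABA receptors and voltage-gated channels, and divide throughout life. Cells that leave this state switch off Pdgfra, pass through a stage with Gpr17, Bcas1, Enpp6 and Bmp4, and then make myelin proteins.

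OPC numbered 177, 11 and 108 in replicates 1, 2 and 3. Their share of the barcodes past the limits was 3.10% in replicate 1 (exact Clopper-Pearson 95% interval 2.66 to 3.58), 1.37% in replicate 2 (0.687 to 2.44) and 2.40% in replicate 3 (1.98 to 2.89), a mean of 2.29% ± 0.867 (SD, n = 3). The median OPC held 4131, 5190 and 5071.5 UMIs, against 4252, 3386 and 6194 UMIs in astrocytes. Replicate 2 is thinly filled: its 11 OPC held 64731 UMIs, against 1035696 in the OPC of replicate 1 and 750410 in those of replicate 3. A single UMI there amounts to 9.95 CPM (counts scaled to a common library total). Libraries 1 and 3 shared 12 barcodes, 1 and 2 shared 3, and 2 and 3 shared 2, and none of these was an OPC in both libraries. Scrublet marked no OPC as a doublet and 2.38%, 0.748% and 2.42% of the kept barcodes of replicates 1, 2 and 3.

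The rule separated cells with many of the 9 genes from cells with few. Of the 296 OPC, 218 held 7 or more of the 9 genes, 94 held all 9, and 7 held only 3. Just inside the limit, 3 of those 7 cells also met the astrocyte rule, 2 met the ependymal rule, 3 held Olig1 and 0 held Sox10. Just outside, 62 barcodes held 2 of the 9 genes, most often Matn4 (43 cells) and C1ql1 (30 cells). Of those 62, 53 met the astrocyte rule, 22.6% held Olig1 and 1.61% held Sox10. A further 57 barcodes were left out for holding 2 of the 6 genes of other classes. Among the OPC, 23 also met the astrocyte rule, 11 the oligodendrocyte rule, 3 the microglia rule, 3 the ependymal rule and 1 the pericyte rule.

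The genes of the rule chose the cells, so their levels are given only as a description. Pdgfra stood at 795, 746 and 532 CPM in OPC, against 1.94, 6.41 and 0.506 CPM in astrocytes, and its mean was 137 CPM in pericytes. Cspg4 stood at 378, 298 and 389 CPM in OPC, and pericytes, which are also known to carry NG2, averaged 350.0 CPM. Matn4, a matrilin of the extracellular matrix, stood at 380, 487 and 501 CPM in OPC, against 17.3, 16 and 21.7 CPM in astrocytes. That OPC and astrocytes did not overlap for these 3 genes is largely set by the rule.

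Genes that the rule did not use were high in the same cells. Because all classes were formed from marker genes in the cells compared, the 39 genes of the class rules that were fitted were left out of every count of calls. Genes near 0 in the other classes pass the filter on low counts only through the OPC. That filter therefore partly sets the counts of list members called higher. Of 25 other genes known for OPC, all were tested, 19 were higher in OPC than in astrocytes and 2 were lower, with a median log2 change of 3.02; the 2 lower ones were the matrix protein Bcan and the endothelin receptor Ednrb, and 1 was lower without replicate 1 or without replicate 3. Across all 12098 genes tested, edgeR's quasi-likelihood test called 19.2% higher and 20.6% lower at an adjusted p under 0.05, and the median log2 change was -0.04. Against the unweighted mean of the 5 other classes, all 25 were higher, where 21.8% of all genes were called higher and 21.6% lower. With library totals alone, with no scaling factor between profiles, the median of all genes moved to 0.49 and 76.4% of the calls against astrocytes were higher, against 48.2% of the calls with TMM factors. Levels below are CPM of the summed UMIs of a class in a library, scaled by the TMM factor.

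The transcription factors of the oligodendrocyte lineage are described first. Olig1 and Olig2, the basic helix-loop-helix factors that specify the lineage, Sox10, which keeps its identity, and Myt1, a zinc finger factor, were all higher in OPC than in astrocytes. Olig1 stood at 2571, 2537 and 2122 CPM in OPC, against 117, 96.1 and 66.5 CPM in astrocytes, a log2 change of 4.70 ± 0.32 (SE, adjusted p = 3.84e-12). Olig2 stood at 453, 497 and 399 CPM in OPC, against 21.8, 22.4 and 11.1 CPM in astrocytes, a log2 change of 4.61 ± 0.28 (adjusted p = 5.97e-13). Both genes were thus present in astrocytes at low level, and the libraries of the 2 classes did not overlap. Over all 12098 genes tested, OPC lay above astrocytes without overlap for 16.6% and below them for 23.6%. Sox10 stood at 203, 209 and 203 CPM in OPC, against 0.971, 0 and 0.253 CPM in astrocytes, a log2 change of 8.17 ± 0.53. At single-cell depth a Sox10 UMI was found in 62.1%, 81.8% and 61.1% of OPC, against 0.462%, 0% and 0.186% of astrocytes.

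**Figure D1:**
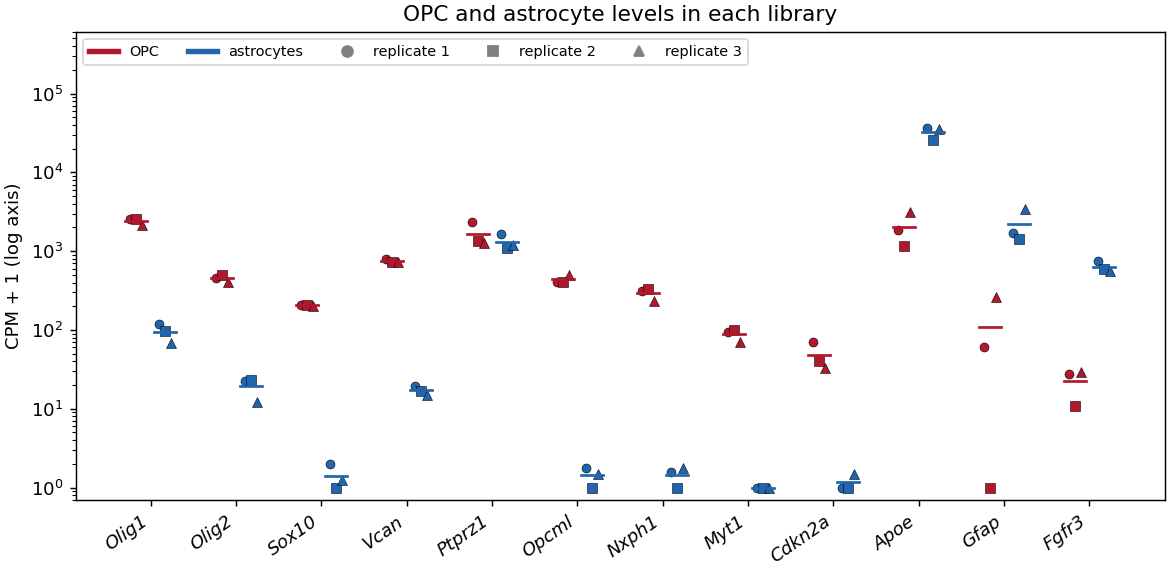
Level of 12 genes in OPC (red, left of each pair) and astrocytes (blue, right) in each library, as CPM + 1 on a log axis; symbols are replicates 1, 2 and 3 and the bar is their mean. Olig1, Olig2, Sox10, Vcan, Opcml, Nxph1, Myt1 and Cdkn2a lie higher in all 3 OPC profiles, Ptprz1 overlaps, and Apoe, Gfap and Fgfr3 lie lower in OPC.

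Myt1 stood at 93.6, 99.5 and 69.6 CPM in OPC, and no UMI was found in astrocytes, which makes it at least 264-fold higher in OPC (floor of 3 UMIs summed over the 3 libraries). The zinc finger factor Zfp488 had no UMI in astrocytes either. Myrf, the factor that switches on myelin genes, had 88 UMIs in OPC and 1 in astrocytes, a CPM ratio of 340 with a 95% counting interval of 59.5 to 13600. Of these 88 UMIs, 63 came from the 18 committed precursor cells described below, 2 from the dividing cells and 23 from the other OPC. Of 33 lineage factors tested, 18 were higher in OPC than in astrocytes and 7 were lower, with a median log2 change of 0.78. The 7 lower ones, Id4, Id2, Hes1, Sox9, Sox2, Nfia and Nfib, are factors that astrocytes and neural stem cells are known to use, and 4 were lower without replicate 1; the share called lower is near the 20.6% of all genes. Id4, an inhibitor of helix-loop-helix factors, averaged 48.2 ± 25.5 CPM in OPC and 907 CPM in astrocytes (log2 change -4.32 ± 0.35). Of the same factors, 25 were higher and 4 lower than in the mean of the other classes, and 2 lower without replicate 1.

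The start regions of 4 of these genes are shown because lineage factors and Notch ligands are groups the results turn on: 2 transcription factors (Olig2, Myt1) and, for the ligands described next, Dll3 and Dll1. Each is a RefSeq window of 300 bases across a transcript start annotated by RefSeq, build GRCm38.p6, read 5′ to 3′ on the gene's strand; they lie at chr16:91225300-91225599 (Olig2, plus strand), chr2:181763082-181763381 (Myt1, plus strand, the most upstream of 3 windows), chr7:28301736-28302035 (Dll3, minus strand) and chr17:15376883-15377182 (Dll1, minus strand, the most upstream of 2 windows). The gene start of GENCODE vM21 lies inside the Olig2 and Myt1 windows and outside those of Dll3 (28302238) and Dll1 (15376872). Capitals mark CAGCTG, a form of the E-box that helix-loop-helix factors are known to bind, and ACAATG or its reverse complement CATTGT, the core that Sox factors are known to bind.
Olig2: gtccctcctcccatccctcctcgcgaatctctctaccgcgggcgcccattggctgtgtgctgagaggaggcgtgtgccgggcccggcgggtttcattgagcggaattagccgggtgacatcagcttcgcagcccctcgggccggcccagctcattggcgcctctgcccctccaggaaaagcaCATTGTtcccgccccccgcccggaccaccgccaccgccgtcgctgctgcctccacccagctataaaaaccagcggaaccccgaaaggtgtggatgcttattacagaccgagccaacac
Myt1: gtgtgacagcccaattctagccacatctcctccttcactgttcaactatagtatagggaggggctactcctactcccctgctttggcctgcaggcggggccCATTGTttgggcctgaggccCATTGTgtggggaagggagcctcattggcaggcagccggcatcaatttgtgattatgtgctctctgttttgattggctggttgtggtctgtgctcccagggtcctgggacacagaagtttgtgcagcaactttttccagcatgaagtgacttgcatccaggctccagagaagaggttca
Dll3: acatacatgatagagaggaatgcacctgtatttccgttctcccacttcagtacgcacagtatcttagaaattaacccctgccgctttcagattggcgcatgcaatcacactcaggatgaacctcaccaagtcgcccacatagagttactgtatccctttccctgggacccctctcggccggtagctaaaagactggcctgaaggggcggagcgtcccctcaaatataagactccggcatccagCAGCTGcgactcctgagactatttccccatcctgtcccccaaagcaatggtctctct
Dll1: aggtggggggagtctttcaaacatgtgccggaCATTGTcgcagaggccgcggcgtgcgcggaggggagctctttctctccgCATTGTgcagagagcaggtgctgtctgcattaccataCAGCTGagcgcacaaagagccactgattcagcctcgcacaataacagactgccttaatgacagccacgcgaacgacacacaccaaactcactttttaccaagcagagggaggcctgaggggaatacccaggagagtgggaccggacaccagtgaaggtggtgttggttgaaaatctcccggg

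Both strands were searched and overlapping matches were allowed. The Olig2 window held 1 match to the Sox core and the Myt1 window held 2. The Dll3 window held 1 match to the E-box form, and the Dll1 window held 1 match to the E-box form and 2 to the Sox core. The E-box form, which is its own reverse complement, stood in 16.3% of all 32851 windows of the table and in 15.4% of the windows of genes tested. It stood in 18.4% of the windows of genes called higher in OPC than in astrocytes, against 15.3% of those called lower. The Sox core stood in 12.6% of all windows and 7.43% of the windows of genes tested, in 7.98% of the windows of genes called higher and in 6.73% of those called lower. These matches describe the letters of the windows only.

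In Notch signalling, by which neighbouring cells hold each other in or out of a state, 6 of 25 genes were higher and 7 lower than in astrocytes, beside 19.2% and 20.6% of all genes. The ligands Dll1, Dll3 and Jag2 were higher in OPC, as were Dner, Maml3 and Hey2. The receptors Notch1, Notch2, Notch3 and Notch4 were lower, as were Lfng, Heyl and Hes1. Jag2, Dner, Maml3 and Hey2 were named after their values were seen. The ligands Dll4 and Jag1, both named after their values were seen, were not called against astrocytes, and Dll4 was lower than in the mean of the other classes. Dll1 stood at 42.0, 109 and 28.7 CPM in OPC and had 1 UMI in all astrocytes, and Dll3 at 40.5, 69.6 and 44.0 CPM in OPC with 2 UMIs in astrocytes. Their CPM ratios were 371 (95% counting interval 65.1 to 14822) for Dll1 and 203 (54.9 to 1699) for Dll3. Notch2 stood at 11.1, 9.95 and 6.14 CPM in OPC, against 103, 128 and 66.2 CPM in astrocytes (log2 change -3.26 ± 0.29). Lfng, which modifies Notch receptors with sugar, averaged 5.43 ± 4.71 CPM in OPC and 98.9 ± 21.5 CPM in astrocytes (log2 change -3.54 ± 0.34). Heyl, a Notch target, had no UMI in OPC and was at least 4.05-fold lower. Hes1, another target, was lower as well, whereas the target Hey2 was higher than in astrocytes. Against the mean of the other classes Heyl and Hes1 were lower, and Hes5 and Hey2 were higher. The median over the 25 was 0.04; with no scaling factor 9 were higher and 6 lower, and without replicate 1 they were 2 and 6.

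Growth factor receptors were called in both directions, within the ErbB family too. Spry1, a feedback inhibitor of receptor tyrosine kinases, and Erbb3 and Ntrk3, receptors of neuregulins and neurotrophin-3, were higher in OPC than in astrocytes. Spry1 stood at 164, 149 and 111 CPM in OPC, against 2.52, 0 and 1.26 CPM in astrocytes (log2 change 6.16 ± 0.36). Ntrk3 stood at 130, 99.5 and 75.8 CPM in OPC, against 8.74, 0 and 1.01 CPM in astrocytes (log2 change 4.56 ± 0.45). Erbb3 had 74 UMIs in OPC and 1 in astrocytes, a CPM ratio of 286 with a 95% counting interval of 49.8 to 11460. In the other direction, Egfr, of the same family as Erbb3, Fgfr3 and Bmpr1b were lower. Fgfr3 stood at 26.5, 9.95 and 28.7 CPM in OPC, against 754, 587 and 556 CPM in astrocytes (log2 change -4.69 ± 0.35). Egfr stood at 3.69, 0 and 0 CPM in OPC, against 68.7, 51.3 and 49.8 CPM in astrocytes (log2 change -4.91 ± 0.50). Of 23 members tested, 7 were higher and 10 lower (median -0.34), which turned to 10 and 7 with no scaling factor.

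Wnt pathway genes were called about as often as all genes, of which 39.8% were called in either direction. Of 27 tested, 3 were higher in OPC than in astrocytes and 8 lower (median -0.53), and with no scaling factor 7 were higher and 6 lower; without replicate 1 they were 2 and 4. The receptor Fzd2 stood at 2.21, 0 and 7.17 CPM in OPC, against 134, 176 and 90.5 CPM in astrocytes (log2 change -4.86 ± 0.45). The 3 higher members, named because they were so few, were the co-receptor Lrp6 and the inhibitors of the pathway Rnf43 and Nkd1. Rnf43 stood at 19.9, 39.8 and 11.3 CPM in OPC, against 3.30, 3.20 and 2.28 CPM in astrocytes (log2 change 2.56 ± 0.52).

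In the chondroitin sulfate matrix, OPC and astrocytes shared some core proteins and differed in others. Vcan, the proteoglycan versican, stood at 786, 726 and 719 CPM in OPC, against 18.4, 16 and 13.9 CPM in astrocytes (log2 change 5.45 ± 0.34). Enzymes of the sugar chain went both ways. The enzyme that starts it (Xylt1) and 2 that sulfate it (Chst11 and Chst3) were higher, with log2 changes of 1.96 ± 0.20, 2.06 ± 0.22 and 3.12 ± 0.48. Csgalnact1, Chpf2 and Chsy1, which build the chain, were lower, as were the core proteins Bcan and Ncan. These 5 were named after their values were seen. Hapln1, a link protein of the matrix, averaged 18.6 ± 10.9 CPM in OPC and 96.9 ± 28.5 CPM in astrocytes (log2 change -2.94 ± 0.34). Ptprz1, a receptor phosphatase that carries such chains, stood at 2359, 1333 and 1265 CPM in OPC, against 1630, 1093 and 1193 CPM in astrocytes, which overlap (log2 change 0.33 ± 0.24, adjusted p = 0.304). It was higher than in the mean of the other classes (log2 change 3.24 ± 0.16). Of 16 members tested, 5 were higher and 6 lower than in astrocytes (median 0.17), turning to 7 and 4 with no scaling factor and to 6 and 3 without replicate 1, while against the mean of the other classes 10 were higher and 1 lower (median 2.46), with none lower without replicate 1 or without replicate 3.

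Receptors of neuronal transmitters differed by subunit. AMPA receptor subunits Gria3 and Gria4 and the kainate receptor subunit Grik3 were higher in OPC, whereas the NMDA receptor subunit Grin2c and the metabotropic receptor Grm3 were lower in OPC. The NMDA and metabotropic receptors went both ways. The NMDA subunits Grin1 and Grin3a and the metabotropic receptors Grm5 and Grm7 were higher, and the NMDA subunit Grin2b was lower. Of these, Grin1, Grin3a, Grm5 and Grin2b were named after their values were seen. Gria3 stood at 234, 169 and 132 CPM in OPC, against 2.33, 0 and 0.506 CPM in astrocytes (log2 change 6.88 ± 0.41). Gria4 stood at 144, 79.6 and 96.3 CPM in OPC, against 0.583, 0 and 0.506 CPM in astrocytes (log2 change 7.68 ± 0.59). The libraries of OPC and astrocytes did not overlap for either gene, beside 16.6% of all genes with OPC above astrocytes without overlap. Grin2c stood at 5.90, 9.95 and 3.07 CPM in OPC, against 419, 410 and 372 CPM in astrocytes (log2 change -6.38 ± 0.37). Grm3 stood at 4.42, 0 and 3.07 CPM in OPC, against 136, 99.4 and 117 CPM in astrocytes (log2 change -5.07 ± 0.39). Of 19 glutamate receptor and auxiliary genes tested of 30 in the list, 11 were higher, 3 were lower and the median was 1.01. Against the other classes 16 were higher and 2 lower (median 4.58), with 1 lower without replicate 3. The low-count filter partly sets these counts and medians, as genes near 0 in the other classes pass it only through the OPC.

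For GABA the subunits also divided. Of 10 tested, 2 were higher in OPC than in astrocytes, among them Gabra3, and Gabrb1, Gabra2, Gabra4, Gabrg1 and the metabotropic receptor Gabbr1 were lower, a median of -0.42. Gabrb1 stood at 29.5, 79.6 and 28.7 CPM in OPC, against 512, 423 and 447 CPM in astrocytes (log2 change -3.91 ± 0.34). Gabra3 had 36 UMIs in OPC and 3 in astrocytes (CPM ratio 46.4, 95% counting interval 14.7 to 236). With no scaling factor 4 were higher and 5 lower, and without replicate 2, the thin library, 5 were higher and 5 lower.

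Most voltage-gated channels tested were higher in OPC. Of 27 tested of 31 in the list, 21 were higher than in astrocytes, 3 were lower and the median log2 change was 2.47. Against the mean of the other classes 26 were higher and none was lower. The low-count filter partly sets these counts too. The sodium channel Scn1a stood at 42.8, 39.8 and 36.9 CPM in OPC with no UMI in astrocytes, at least 126-fold higher. Scn3a, another sodium channel, stood at 59.7, 89.5 and 58.4 CPM in OPC and had 3 UMIs in astrocytes (CPM ratio 190, 95% counting interval 63.6 to 930). The potassium channel Kcna1 had 152 UMIs in OPC and 2 in astrocytes (ratio 294, interval 80.0 to 2450). The 3 lower members were potassium channels, among them the inward rectifiers Kcnj10 and Kcnj16 by which astrocytes are known to clear potassium. Kcnj10 stood at 89.2, 89.5 and 77.8 CPM in OPC, against 234, 205 and 196 CPM in astrocytes (log2 change -1.36 ± 0.23). Kcna2, the third of them, averaged 32.9 ± 12.2 CPM in OPC and 122 CPM in astrocytes.

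Synaptic adhesion molecules gave several of the largest differences. Opcml, a cell adhesion protein of the IgLON family, stood at 408, 408 and 496 CPM in OPC, against 0.777, 0 and 0.506 CPM in astrocytes (log2 change 9.32 ± 0.43, adjusted p = 6.22e-14). Nxph1, a secreted partner of neurexins, stood at 312, 328 and 230 CPM in OPC, against 0.583, 0 and 0.758 CPM in astrocytes (log2 change 8.68 ± 0.39). Against the mean of the other classes its log2 change was 9.58 ± 0.28. Lrrtm3, a leucine-rich repeat protein of synapses, had 371 UMIs in OPC and 2 in astrocytes, and Dscam, a homophilic adhesion protein, had 438 and 3. Nrxn3, a neurexin, averaged 116 ± 29.5 CPM in OPC and 0.602 ± 0.834 CPM in astrocytes (log2 change 6.70 ± 0.49). Of 33 members tested, 19 were higher, 6 lower and the median was 1.83, and against the other classes 31 were higher and none lower (median 3.60).

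**Figure D2:**
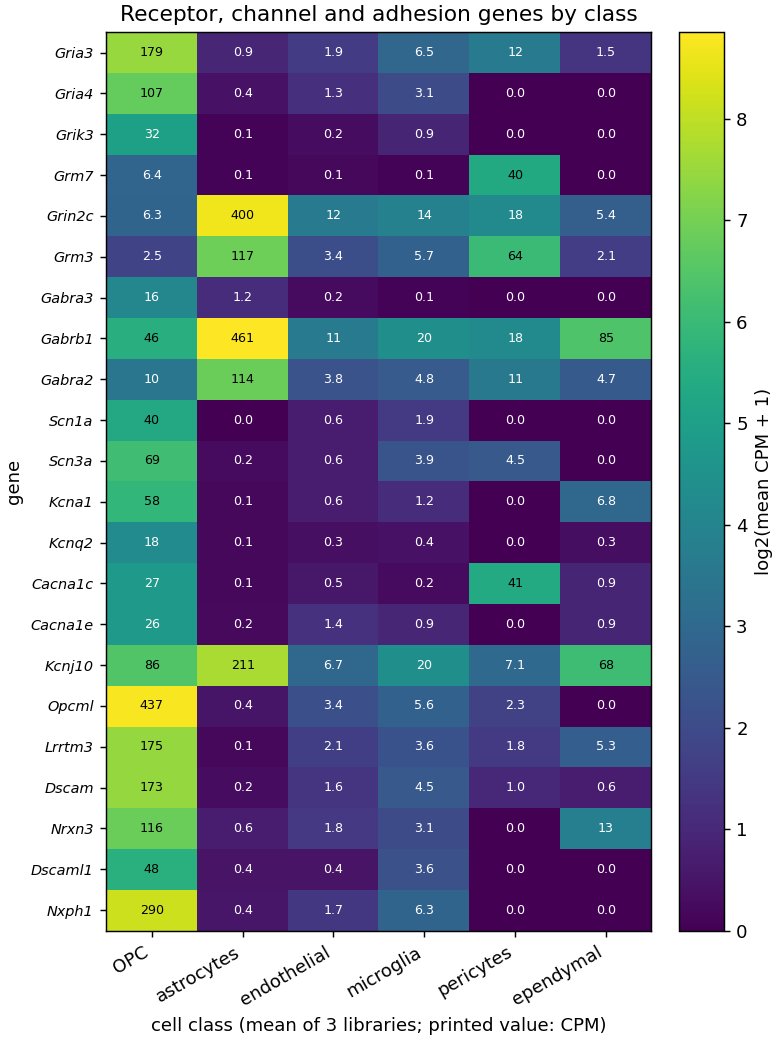
Mean CPM over 3 libraries (printed, with colour as log2 of mean CPM + 1) of receptor, channel and adhesion genes in OPC, astrocytes, endothelial cells, microglia, pericytes and ependymal cells. Gria3, Scn3a, Opcml and Nxph1 are bright in OPC alone, while Grin2c, Grm3, Gabrb1 and Gabra2 are brightest in astrocytes.

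Outside the lists, the genes highest in OPC against astrocytes included Mgat5b, an enzyme of sugar chain branching, at 43.5, 109 and 54.3 CPM with no UMI in astrocytes (at least 159-fold higher). Gjc3, the gap junction protein connexin 29 of the oligodendrocyte lineage, stood at 339, 348 and 385 CPM in OPC, against 1.75, 0 and 0.253 CPM in astrocytes (log2 change 8.27 ± 0.48). The splicing factor Khdrbs2, the teneurin Tenm1 and the ubiquitin ligase March1 each had 1 UMI in all astrocytes, against 146, 131 and 157 UMIs in OPC. March1 was not particular to OPC, since microglia averaged 60.2 CPM. Against the mean of the other classes Adarb2, Snx22, Tmem163, Tmeff2 and Lrrtm4 also ranked among the 12 highest, with log2 changes between 8.10 and 8.66. Tmem163 averaged 4.04 CPM in microglia, its highest level outside OPC.

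At the other end, the laminin chain Lama2 had no UMI in OPC, against 60.8, 54.5 and 52.8 CPM in astrocytes (at least 46.4-fold lower). Acat3, named for acetyl-CoA acetyltransferase activity, had no UMI in OPC either, against 44.1, 70.5 and 35.6 CPM in astrocytes (at least 33.6-fold lower). Agt, the precursor of angiotensin, stood at 2.21, 0 and 5.12 CPM in OPC, against 245, 215 and 194 CPM in astrocytes (log2 change -6.07 ± 0.43). Hsd11b1, which regenerates active glucocorticoid, averaged 3.48 ± 3.70 CPM in OPC and 346 ± 43.8 CPM in astrocytes (log2 change -6.03 ± 0.57). Daam2, a formin-related protein of Wnt signalling, and Lgi4, a secreted glial protein, had log2 changes of -5.85 ± 0.40 and -5.73 ± 0.38. Among the 12 lowest against the mean of the other classes, Gimap6, Ptgs1, Cd37, Thbd and Fmo2 had no UMI in any OPC.

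Cells on the way to oligodendrocytes were a small part of the OPC, and their number differed between libraries. Of 12 genes of committed precursors in the table, 8 or more had a UMI in 5 of 177 OPC of replicate 1 (2.82%, exact 95% interval 0.923 to 6.47), in 0 of 11 of replicate 2 (exact interval 0 to 28.5), and in 13 of 108 of replicate 3 (12%, interval 6.57 to 19.7). No astrocyte reached 8, and the highest astrocyte held 5. The limit of 8 was set after the counts per cell had been seen, and 7, 0 and 7 OPC lay just under it with 5 to 7 genes. These 18 cells had a median of 14048 and 14201 UMIs in replicates 1 and 3, against 3829.5 and 4300.0 in the OPC of neither subgroup, so depth moved with the count. With every cell thinned to 1000 UMIs, 6.78%, 0% and 13% of OPC held 3 or more of the 12 genes, against 0.185%, 0% and 0.186% of astrocytes. Without thinning these shares were 47.5%, 54.5% and 60.2% in OPC.

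The genes of the 18 cells are given as a description, because the list chose them. Here levels are plain CPM of the summed UMIs of the subgroup. Pdgfra had 1 UMI in the 18 cells, against 929 to 1198 CPM over the libraries in the 256 other OPC. Cspg5, a neural proteoglycan, had 31.2 CPM in them, against 3399 CPM in the other OPC. Mbp, myelin basic protein, had 3266 and 4455 CPM in replicates 1 and 3 in the committed cells, against 34.6, 30.9 and 32.3 CPM in the other OPC of replicates 1, 2 and 3. Gpr17 had 2020 and 1705 CPM in the committed cells, against 386, 309 and 258 CPM in the other OPC. Mag, a myelin-associated adhesion protein, had 206 UMIs in 14 of the 18 cells, and of other genes of myelinating cells Cldn11 had 179 UMIs in 15 cells, Mog 67 in 10 cells and Opalin 21 in 6 cells, while Mobp and Ermn had 0 UMIs. Enpp6 had 267 UMIs, found in all 18 cells, and Bmp4 153 UMIs in 17 of them. Outside the lists, the genes furthest above the other OPC included Brca1, Nkx6-2, Parvb and Rassf10.

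In the class comparison these cells moved the values of myelin genes. Mbp stood at 183, 19.9 and 887 CPM in all OPC, against 28.5, 38.5 and 57.9 CPM in astrocytes (log2 change 3.11 ± 0.41), and without the 18 cells it was -0.69 and not called. Bcas1 stood at 439, 209 and 893 CPM in OPC, against 2.52, 0 and 3.79 CPM in astrocytes (log2 change 7.53 ± 0.47), and stayed called at 6.4. Ugt8a, the enzyme that makes galactosylceramide, a lipid of myelin, stood at 150, 89.5 and 125 CPM in OPC, against 0.194, 0 and 1.26 CPM in astrocytes, and its change of 7.62 ± 0.46 was 7.13 without the 18 cells. Replicate 2, with none of these cells, was the lowest for Mbp and Bcas1. Of 7 myelin genes tested, 5 were higher (4 without these cells) and Mal was lower, a call lost without replicate 1 and without replicate 3. Of 9 committed precursor genes past the low-count filter, 6 were higher and none lower, against 4 higher and 1 lower without these cells. Genes near 0 in the other classes pass that filter only through the OPC, which partly sets these counts. Bmp4 stood at 27.3, 0 and 136 CPM in OPC with no UMI in astrocytes (at least 219-fold higher), and Enpp6 did not pass the low-count filter, with 278 UMIs in OPC and 2 in astrocytes.

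A second small subgroup was dividing. At least 8 of 24 genes of DNA replication and mitosis had a UMI in 16 of 177 OPC of replicate 1 (9.04%, interval 5.26 to 14.3), in 0 of 11 of replicate 2 (exact interval 0 to 28.5), and in 6 of 108 of replicate 3 (5.56%, interval 2.07 to 11.7). In astrocytes 1 cell, in replicate 3, reached 8. No OPC was in both subgroups. The dividing cells had a median of 11805.5 and 11017.5 UMIs in replicates 1 and 3, and 8, 1 and 3 OPC lay just under the limit. Thinned to 1000 UMIs, 8.47%, 0% and 5.56% of OPC held 3 or more of the 24 genes, against 0%, 0% and 0.186% of astrocytes, and without thinning 22%, 18.2% and 15.7% of OPC did.

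**Figure D3:**
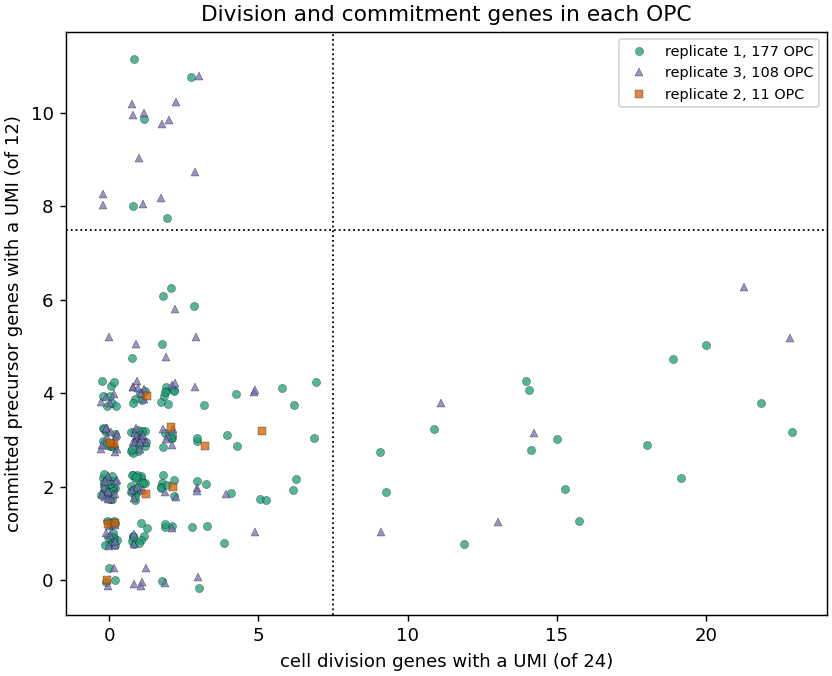
Each point is 1 of the 296 OPC, with the number of the 24 division genes with a UMI on the x axis and of the 12 committed precursor genes on the y axis, slightly displaced to separate points; colour and symbol give the library and dotted lines mark the limit of 8. The 22 cells to the right and the 18 above share no member, and none of the 11 cells of replicate 2 passes either limit.

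The genes of the dividing cells are given as a description, because the rule and the division list chose them. Of genes outside both, Cspg5 had 2987 and 3682 CPM in the dividing cells of replicates 1 and 3, against 3658, 2920 and 3054 CPM in the other OPC of replicates 1, 2 and 3. Over all libraries Olig1 had 2364 CPM in the dividing cells and 3691 CPM in the other OPC, and Sox10 had 245 CPM and 262 CPM. Of the rule genes, Pdgfra had 795 CPM in the dividing cells and 1097 CPM in the other OPC, Matn4 253 CPM and 667 CPM, C1ql1 359.7 CPM and 728 CPM, and Neu4 146 CPM and 351 CPM. Mki67, a marker of cycling cells, had 714 and 470 CPM in the dividing cells, against 3.84, 0 and 0 CPM in the other OPC. Top2a, a topoisomerase of dividing cells, had 336 UMIs in 19 of the 22 cells. Over all OPC, Top2a stood at 216, 0 and 55.3 CPM and had 1 UMI in astrocytes (347 against 1 UMIs, CPM ratio 1343, 95% counting interval 239 to 53182). Of the 24 division genes, 17 passed the low-count filter, which genes near 0 in astrocytes pass only through the OPC, and these 17 were higher than in astrocytes, 11 without replicate 1, 11 without replicate 3, and 4 without the 22 cells.

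Cdkn2a, which encodes the cell cycle inhibitors p16Ink4a and p19Arf and is widely used as a marker of senescence, was higher in OPC than in astrocytes. It stood at 68.5, 39.8 and 31.7 CPM in OPC, against 0, 0 and 0.506 CPM in astrocytes, and averaged 12.8 CPM in microglia, the next class. The counts were 128 against 2 UMIs, a CPM ratio of 248 with a 95% counting interval of 67.2 to 2067. A UMI was found in 28.2%, 27.3% and 17.6% of OPC, against 0%, 0% and 0.372% of astrocytes and 0.894%, 0.905% and 1.03% of endothelial cells; thinned to 1000 UMIs the shares were 6.78%, 0% and 3.70% in OPC. The UMIs are counted at the 3′ end, which both transcripts share, so the 2 products cannot be told apart. Cdkn2a UMIs were found in 16 of the 22 dividing cells, 4 of the 18 committed cells and 52 of the 256 others, with the dividing and committed cells the deeper ones. As plain CPM of the summed UMIs, Cdkn2a stood at 138 in the dividing cells, 35.1 in the committed cells and 62.6 in the others. The dividing cells had 143 and 125 CPM in replicates 1 and 3, against 79.4 and 36.3 CPM in the others. This difference was not tested. Without the dividing cells the change was 7.47, against 7.67 ± 0.62 with them.

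Of 19 genes of arrest and senescence, 12 were higher in OPC than in astrocytes and 1, Rb1, was lower (median 1.17), beside 19.2% and 20.6% of all genes. The higher ones were 6 without replicate 1 and 9 without the dividing cells. The list held genes with opposite known roles. Lmnb1, a lamin that is lost in senescence, was higher (91.4, 19.9 and 39.9 CPM in OPC, against 2.72, 6.41 and 5.06 CPM in astrocytes, log2 change 3.98 ± 0.37). The inhibitor Cdkn2b was higher too (11.8, 9.95 and 18.4 CPM in OPC, against 0.971, 6.41 and 3.54 CPM in astrocytes). Against the mean of the other classes 4 were higher (Cdkn2a, Lmnb1, Cdkn2c and Bax) and 4 lower, and 7 and 3 with no scaling factor. Those 4 and 4 of 19 are near the 21.8% and 21.6% of all genes called higher and lower in that contrast.

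Astrocyte genes outside the rule gave the reverse image. All 24 were lower in OPC (median -4.69). Apoe, the lipid carrier, stood at 1863, 1174 and 3110 CPM in OPC, against 36594, 25896 and 35145 CPM in astrocytes (log2 change -4.06 ± 0.28), and Gfap, the intermediate filament of astrocytes, at 59.0, 0 and 262 CPM in OPC, against 1720, 1423 and 3416 CPM in astrocytes (log2 change -4.43 ± 0.50). The summed share of the 24 genes was 0.745%, 0.544% and 1.14% of OPC UMIs, against 9.28%, 9.33% and 10.0% of astrocyte UMIs. Without the 23 OPC that also met the astrocyte rule, Gfap had a log2 change of -6.05. Slc1a2, a gene of the astrocyte rule, had a UMI in 83.1%, 81.8% and 82.4% of OPC, against 99.9%, 100% and 100% of astrocytes and 53.2%, 39.6% and 46.5% of endothelial cells, which should lack it.

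Genes of oxidative energy metabolism were called lower than in astrocytes. All 13 mitochondrially encoded genes were lower than in astrocytes (median -1.21), 6 without replicate 1 and 7 with no scaling factor, and their share was 5.81%, 9.40% and 7.15% of OPC UMIs, against 10.2%, 11.5% and 11.7% of astrocyte UMIs. Of 79 nuclear genes of oxidative phosphorylation, 54 were lower and none higher (median -0.71); 21 were lower without replicate 1, 31 without replicate 3, and 12 lower with 3 higher with no scaling factor. Against the other classes none of the 13 mitochondrially encoded genes was called in either direction (median -0.11), and 7 were higher with no scaling factor. Of the nuclear genes 22 were then lower and 1 higher, beside 21.6% of all genes called lower; 2 were lower without replicate 1, 11 without replicate 3, and 2 lower with 25 higher with no scaling factor. Ndufc2, a subunit of complex I, stood at 273, 79.6 and 287 CPM in OPC, against 803, 708 and 1020 CPM in astrocytes (log2 change -1.91 ± 0.26). Cholesterol synthesis, which myelin formation needs, was split: of 27 genes 3 were higher and 7 lower than in astrocytes (10 and 2 with no scaling factor, 2 and 3 without replicate 1, 1 and 7 without replicate 3), and 18 were higher than in the mean of the other classes and 2 lower (median 1.07; 1 lower without replicate 3). Srebf1, a regulator of lipid synthesis, stood at 43.5, 9.95 and 49.2 CPM in OPC, against 326, 263 and 292 CPM in astrocytes (log2 change -2.83 ± 0.27).

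The study's title concerns protein homeostasis in astrocytes, and the genes of that system are set out here for OPC. More lysosomal genes were called lower than higher in OPC against astrocytes, few proteasome genes were called, and more cytosolic chaperones were called higher than lower, though most were not called. Of 45 lysosomal hydrolases tested, 21 were lower and 2 higher (median -0.62), with 10 lower without replicate 1 and 11 with no scaling factor; 1 was higher with any library left out. The cathepsin Ctso stood at 32.4, 39.8 and 35.8 CPM in OPC, against 193, 176 and 149 CPM in astrocytes (log2 change -2.32 ± 0.22). The exceptions were Man2b1, a mannosidase chosen here after its value was seen, and Arsb, which removes sulfate from chondroitin and dermatan sulfate. Arsb stood at 152, 109 and 147 CPM in OPC, against 45.4, 48.1 and 35.1 CPM in astrocytes (log2 change 1.82 ± 0.19). Of 35 genes of the lysosomal membrane and proton pump, 17 were lower and none higher (median -0.46), with 6 lower without replicate 1, 9 without replicate 3, and 6 lower and 5 higher with no scaling factor. Abcb9, a peptide transporter of the lysosome, had 3 UMIs in OPC and 452 in astrocytes, a CPM ratio of 0.0257 with a 95% counting interval of 0.00528 to 0.0755.

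Of 44 proteasome genes, 3 were higher in OPC than in astrocytes (Sem1, Psmd6 and Psmc6, the last named after its value was seen) and 4 were lower (median 0.02), shares under the 19.2% and 20.6% of all genes. The 4 lower ones, Psmb8, Psmb9, Psmb10 and Psme1, are the interferon-induced subunits and activator of the immunoproteasome. Psmb10 stood at 39.1, 0 and 45.1 CPM in OPC, against 56.5, 60.9 and 111 CPM in astrocytes (log2 change -1.05 ± 0.27). The direction of this list depended on scaling, with 24 higher and 1 lower with no scaling factor; without replicate 1 the counts were 0 and 3, without replicate 2 they were 2 and 3, and without replicate 3 they were 0 and 1. Of 48 autophagy genes, 2 were higher and 7 lower (median -0.26), turning to 5 and 1 with no scaling factor; they were 1 and 2 without replicate 1, 1 and 7 without replicate 2 and 2 and 3 without replicate 3. Sqstm1, the autophagy receptor p62, stood at 74.4, 39.8 and 103 CPM in OPC, against 150, 138 and 191 CPM in astrocytes (log2 change -0.99 ± 0.36), a call that was lost without replicate 1 (adjusted p = 0.121) and without replicate 2 (0.0678).

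Of 43 cytosolic chaperones, 14 were higher in OPC than in astrocytes and 2, Hspb8 and Hspa2, were lower (median 0.32). Over all genes 19.2% were called higher and 20.6% lower in that contrast. Of the chaperones, 6 were higher without replicate 1, and 30 with no scaling factor. Against the mean of the other classes 2 were higher and 14 lower, beside 21.8% and 21.6% of all genes. These counts turned to 10 and 6 with no scaling factor, and to 1 and 5 without replicate 1. Hspa1a, the inducible heat shock protein, stood at 139, 507 and 232 CPM in OPC, against 98.1, 170 and 52.6 CPM in astrocytes, which overlap (log2 change 1.55 ± 0.40), and averaged 9565 CPM in endothelial cells. Cryab, a small heat shock protein, stood at 419, 209 and 680 CPM in OPC, against 183, 60.9 and 319 CPM in astrocytes, which overlap as well (log2 change 1.26 ± 0.32). Of 36 genes of endoplasmic reticulum chaperones and the unfolded protein response, 6 were higher and 7 lower than in astrocytes (median 0.28). Those 6 and 7 of 36 are near the 19.2% and 20.6% of all genes. The counts turned to 21 and 3 with no scaling factor, 1 and 3 without replicate 1, and 1 and 5 without replicate 3. Sdf2l1, a chaperone cofactor of that compartment, stood at 63.4, 9.95 and 76.8 CPM in OPC, against 8.54, 12.8 and 13.4 CPM in astrocytes (log2 change 2.58 ± 0.30), and its values overlap through replicate 2. Of 80 ribosomal protein genes, 7 were higher and none lower than in astrocytes (median 0.19), shares under the 19.2% and 20.6% of all genes. The number higher was 65 with no scaling factor, 1 without replicate 1 and 4 without replicate 3. Against the mean of the other classes 69 were lower (median -0.91), beside 21.6% of all genes. With no scaling factor 28 were lower and 3 higher in that contrast. Rpl13 stood at 3002, 1771 and 2469 CPM in OPC, against 1143, 769 and 1162 CPM in astrocytes (log2 change 1.23 ± 0.23); ribosomal genes have near-identical pseudogenes, so such counts are uncertain.

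**Figure D4:**
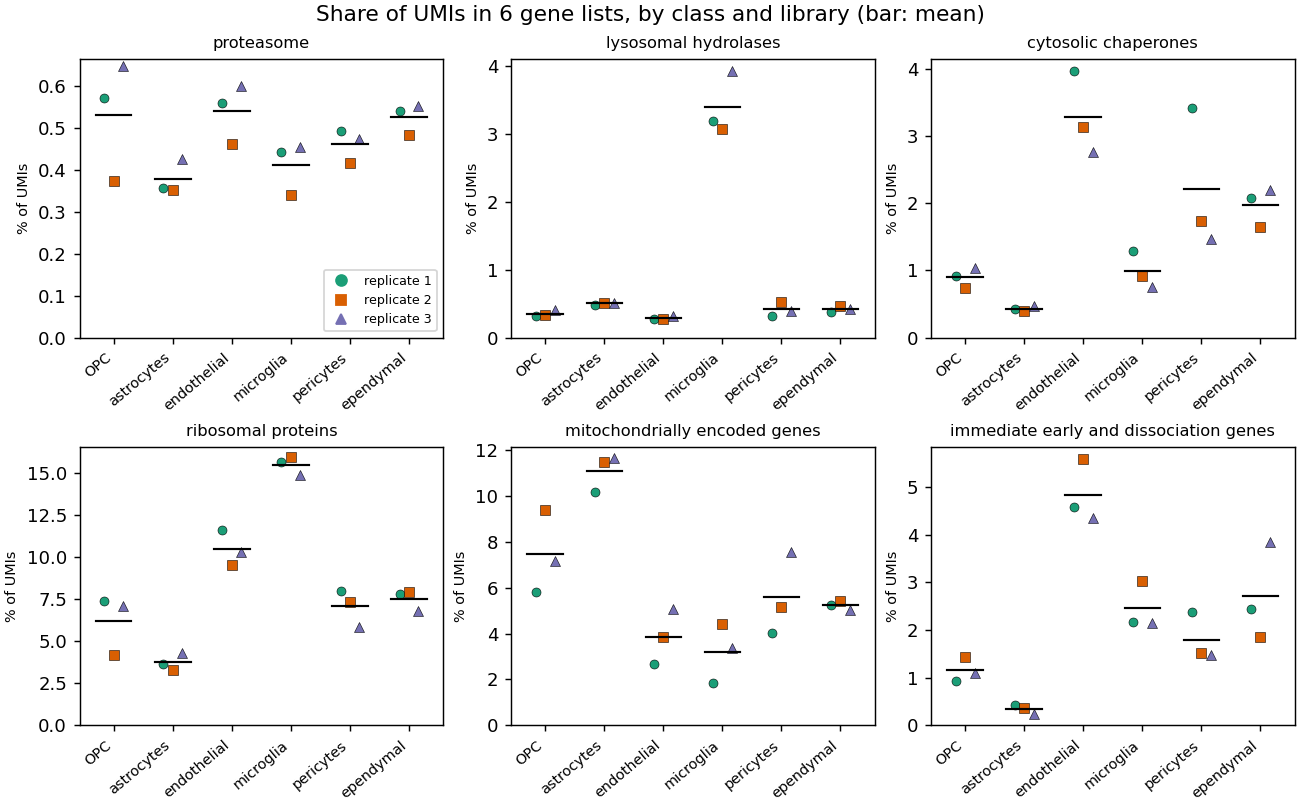
Share of all UMIs of a class (y axis, percent) taken by 6 gene lists in OPC, astrocytes and the 4 other classes, 1 point per library and a bar at the mean. OPC lie below astrocytes for lysosomal hydrolases and mitochondrially encoded genes and above them for cytosolic chaperones and immediate early genes, where endothelial cells are far higher.

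Immediate early genes, which respond to activity and to tissue dissociation, were called higher than in astrocytes and lower than in the mean of the other classes, in part of the list. Of 27 tested, 14 were higher than in astrocytes (median 1.05), and 20 were lower than in the mean of the other classes (median -1.60). Fosb stood at 496, 905 and 468 CPM in OPC, against 79.4, 80.1 and 22.5 CPM in astrocytes (log2 change 3.37 ± 0.40), and averaged 1772 CPM in endothelial cells. Jun stood at 1528, 2059 and 1905 CPM in OPC, against 855, 410 and 350 CPM in astrocytes (log2 change 1.83 ± 0.35). The list took 0.930%, 1.43% and 1.11% of OPC UMIs, against 0.423%, 0.366% and 0.235% of astrocyte UMIs. The part of the papain digestion in these levels was not tested.

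More immune genes were called lower than higher in OPC. Of 28 interferon response genes, 14 were lower than in astrocytes (7 without replicate 3) and 2, Ifit2 and Irf1, both named after their values were seen, were higher (median -1.44); 1 was higher without replicate 1, and 3 without replicate 2 or 3. Ifitm3, an antiviral membrane protein, stood at 21.4, 9.95 and 81.9 CPM in OPC, against 91.1, 64.1 and 555 CPM in astrocytes (log2 change -2.39 ± 0.49); both classes were highest in replicate 3, and the ranges overlap. Of 12 genes of MHC class I, 4 were lower and none higher, 1 lower without replicate 3 and 2 higher with 1 lower with no scaling factor. H2-K1, a class I heavy chain with close paralogs that the counting may not part, stood at 104, 49.7 and 104 CPM in OPC, against 198, 202 and 297 CPM in astrocytes (log2 change -1.32 ± 0.27). In the contrast with the 5 other classes 11 of the 12 were lower.

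**Figure D5:**
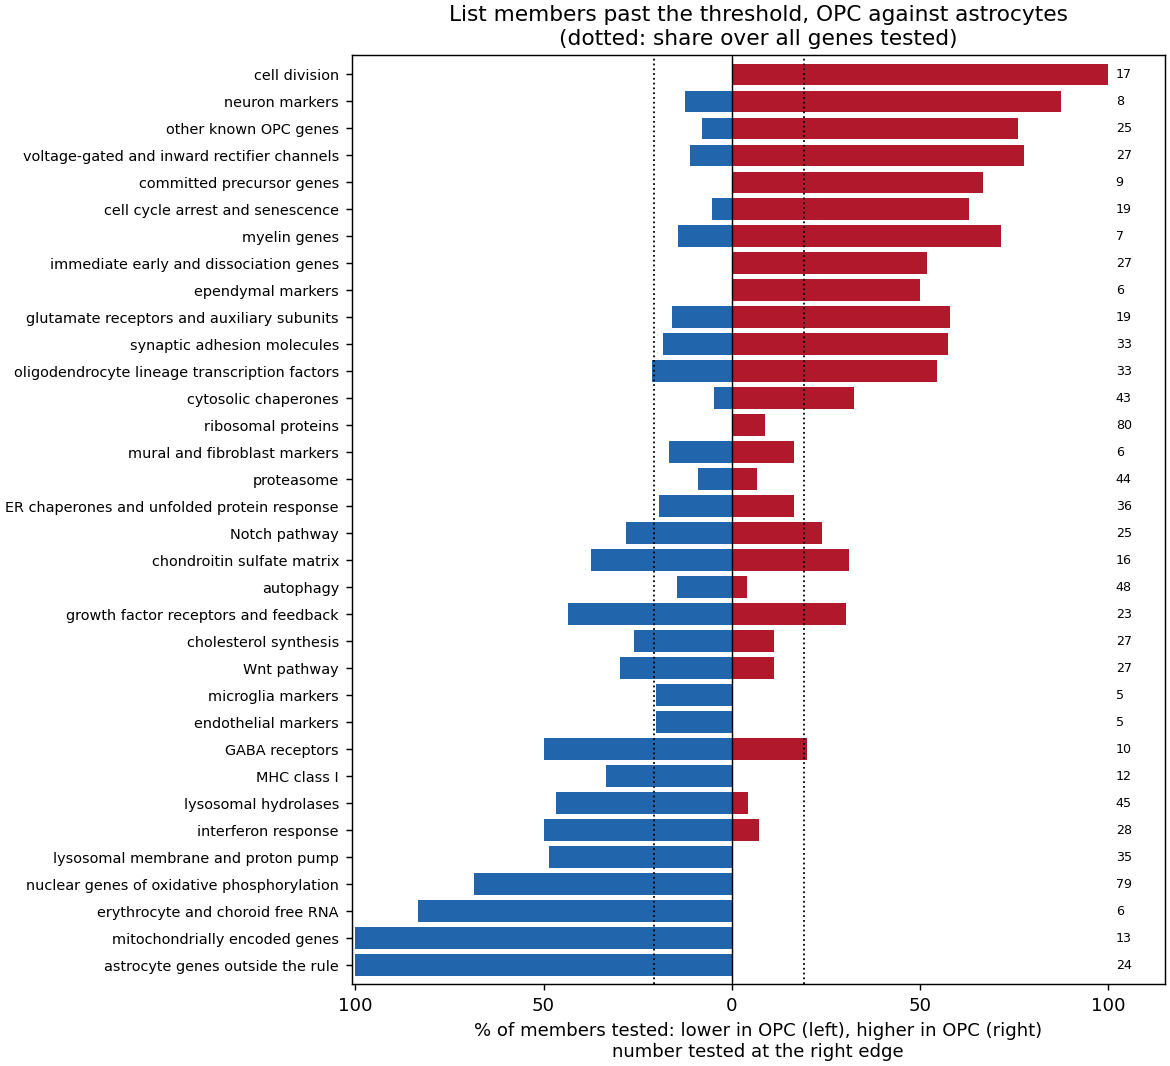
For each gene list, the share of its tested members called higher (red, right) or lower (blue, left) in OPC than in astrocytes by edgeR at an adjusted p under 0.05, with the number tested at the right edge. Dotted lines mark the 19.2% of all genes called higher and the 20.6% called lower. Channel, lineage and division lists reach beyond them to the right, and the low-count filter partly sets their shares. Astrocyte, mitochondrial and lysosomal lists reach beyond them to the left.

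Markers of other cells were measured beside these results. Of 8 neuron markers tested of 12, 7 were higher in OPC than in astrocytes and Stmn2 was lower (median 4.08). The low-count filter partly sets this count and median, as genes near 0 in the other classes pass it only through the OPC. Their sum was 0.0789% to 0.215% of OPC UMIs, against 0.00319% to 0.00516% of astrocyte UMIs and 0.0569% to 0.158% of ependymal UMIs. Rbfox3 and Slc17a7, which define neurons and excitatory neurons, had 0 UMIs in all OPC. Dcx, a microtubule protein of young neurons that OPC are also known to carry, stood at 47.9, 59.7 and 24.6 CPM in OPC with no UMI in astrocytes (at least 123-fold higher). Snap25, a synaptic release protein, had a UMI in 31.1%, 36.4% and 26.9% of OPC, against 2.40%, 1.75% and 2.61% of astrocytes and 0.854%, 0.905% and 0.517% of endothelial cells. Gad1 had a UMI in 19.2%, 36.4% and 15.7% of OPC, against 0.646%, 3.51% and 0% of astrocytes, while Gad2, the other GABA-making enzyme, had 5 UMIs in all OPC.

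The endothelial list summed to 0.0148% to 0.0232% of OPC UMIs, against 0.0173% to 0.0368% of astrocyte UMIs. The microglia list summed to 0.0185% to 0.0337% of OPC UMIs, against 0.0293% to 0.0332% of astrocyte UMIs, and Tmem119 was at 0 in OPC. The mural and fibroblast list summed to 0.00299% to 0.0124% of OPC UMIs, against 0.0107% to 0.0146% of astrocyte UMIs. Of 6 ependymal markers tested of 12, 3 were higher in OPC, and their sum ranged between 0.00309% and 0.0652% of OPC UMIs, against 0.00619% and 0.0189% in astrocytes. Without the 23 OPC that met the astrocyte rule, and also without replicate 3, 1 of them was higher and 1 lower. Haemoglobin and choroid genes, a measure of free RNA, took 0.0137%, 0.0772% and 0.0517% of OPC UMIs, against 0.186%, 0.0886% and 0.242% of astrocyte UMIs. Hbb-bs had a UMI in 39.0%, 81.8% and 81.5% of OPC, against 37.2%, 80.7% and 86.2% of astrocytes. The part of this free RNA in the low astrocyte signal of OPC was not tested.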

How the data were processed

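Cells of 3 hippocampal libraries were counted with the 10x Chromium 3′ chemistry, and the authors deposited raw UMI counts per gene and barcode. The submitters' processing notes name Cell Ranger, without a version, and the build mm10. Every count is whole and unnormalized, per the values deposited by the authors. Dots stood for hyphens in gene names, and 2411 of 31053 symbols were restored; 30531 were found in GENCODE vM21.

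Barcodes were classed by the marker rules, a barcode outside the OPC meeting 2 or more rules going to none (989 barcodes), and 759 met no rule. Scrublet (scanpy 1.11.5, assumed rate 0.06) marked doublets, which were kept. Summing the UMIs of each class of 10 or more cells within a library gave 18 profiles, fitted with edgeR 4.0.16 (limma 3.58.1, R 4.3.3) by the quasi-likelihood test, with TMM factors, filterByExpr and the library as a block (10 residual degrees of freedom). Benjamini-Hochberg adjustment ran over 12137 genes; 39 genes of the rules were then left out, which left 12098. The TMM factor averaged 1.39 in OPC and 0.939 in astrocytes.

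Genes were named by rule: the 12 highest and 12 lowest in each contrast with an adjusted p under 0.05, 1 sign in all libraries and at least 50 CPM on one side, up to 6 members per list, and 14 genes named always. Members of counts of 5 or fewer and some Notch, matrix and glutamate receptor genes were added after their values were seen. The rule, the members and the lists were chosen with earlier results of these data known. A floor is 3 UMIs over the 3 libraries; intervals and floors cover counting error only. Counts were also simulated for all 18 profiles from 1 pooled mean profile, with a fixed dispersion and no library effect (9933 genes tested). Classes differed there only in a small set of genes changed in OPC. In OPC against astrocytes the test recovered 93.6% of genes raised and 82.6% of genes lowered by 2 log2 units. At 1 unit it recovered 11.4% and 9.52%, and it called 2 of 9754 unchanged genes. The real classes differ far more, so these shares may not hold for the real profiles. The fit was repeated under 18 alternative settings. DESeq2 1.42.0 served as an alternative. Results for a few genes are not reported here.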

Additional observations from a re-analysis of the deposited data

How the results depend on the processing

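Of 434 log2 changes of named genes, 301 kept their direction and their side of the threshold under all settings run. No replicate numbers stand in the labels; the library served as a block, and with no replicate block 2052 genes were higher and 2140 lower than in astrocytes, and 17 of the 434 lost their call and 1 gained one. Of the 434, 52 lost their call without replicate 1, 40 without replicate 3, 35 with no scaling factor, 26 with OPC that held none of the 6 genes of other classes, 19 without the committed cells, 13 with at most 10% mitochondrial UMIs, 11 with DESeq2, 9 without replicate 2, 8 without the dividing cells, 5 with RLE factors, 5 without OPC that met the astrocyte rule, 3 with at least 4 OPC rule genes and 2 with no low-count filter. A single call was lost in each of 4 settings, namely with a higher minimum of UMIs per cell, without Scrublet doublets, with no limit on the 6 genes in astrocytes and with only OPC and astrocytes in the fit. With 1 library left out the genes called higher than in astrocytes ranged between 1415 and 2660 and those lower between 1384 and 2692; against the mean of the other classes they ranged between 1777 and 3083 higher and between 1291 and 2698 lower. With no scaling factor (library totals alone) 4418 genes were higher and 1367 lower than in astrocytes, and 5107 higher and 1248 lower than in the mean of the other classes, where 80.4% of calls were then higher against 50.2%; Ndufc2 (0.014), Rps26 (0.47), Sem1 (0.43), mt-Atp6 (0.46) and mt-Nd2 (0.50) changed sign against the other classes. Without the 18 committed cells Mbp (-0.69) and Kif19a (-0.0681) changed sign against astrocytes, and Kif19a (-0.0585) and Cnksr3 (-0.0109) against the other classes. Without the 22 dividing cells Tpx2 was -0.13 against the other classes. Without OPC that met the astrocyte rule Cfap126 was -0.44 against astrocytes and -1.53 against the other classes. Acta2 against astrocytes was between -0.54 and 3.24 with 1 library left out. The settings that drop scaling factors, committed cells or dividing cells were added after the data were seen; in the other sign changes the cause was not tested. OPC with none of the 6 genes of other classes were 1.28% of barcodes on average, against 2.29%. Thinned to 1000 UMIs, 6.58% of OPC held 3 or more committed precursor genes, against 54.1% unthinned, and 4.68% held 3 or more division genes, against 18.7%. With at most 10% mitochondrial UMIs, 5 OPC were left in replicate 2, too few for a profile. The 11 OPC of replicate 2 limit the precision throughout.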
